A study of Mus musculus with 8 samples.

Results

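The mProx line consists of cultured mouse epithelial cells of the proximal renal tubule, and its response to stimulation rests on 2 of the 8 arrays of the series. The 2 arrays were chosen by their titles, 1 of resting and 1 of stimulated mProx cells. Stimulated cells had received recombinant human TGF-β1 at 3 ng/mL together with recombinant human EGF at 3 ng/mL for 24 h, and resting cells received neither. Both had first been kept for 24 h in K-1 medium, which holds transferrin and insulin. The other 6 arrays hold the same pair of states for MCT, a second renal tubular line, for NMuMG, a mammary line, and for EpH4, a mammary line labelled as resistant to the epithelial-mesenchymal transition. The 2 factors were given together, so their parts in the response cannot be told apart. The labels do not say whether the 2 mProx arrays came from separate cultures, and nothing in them tells how the line was made. Of 18193 genes, 12463 reached a mean level of 5.25 log2 units (the 40th percentile of all probe sets) over the 2 mProx arrays and were compared.

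TGF-β1 acts through receptor kinases that phosphorylate SMAD proteins, and EGF acts through its receptor on the RAS and ERK kinases. In proximal tubule cells the combination is known for lowering transport and brush border genes, raising extracellular matrix genes and driving cells towards a fibroblast-like state. Cell cycle genes are regulated by both routes, since ERK signalling raises D-type cyclins and TGF-β signalling raises inhibitors of cyclin-dependent kinases. The question here was which parts of the mProx response were absent from the other 3 lines under the same treatment.

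With 1 array a side the mProx response has no replicate check, so it is given as sizes without a test. A level is the log2 of the normalised array signal, a change is the stimulated level minus the resting level, and a gene is counted at 2-fold or more, a log2 change of 1. The only internal measure of error is the agreement of different probe sets (separate groups of probes) for the same gene. Over 10610 further probe sets of 6058 genes, the SD of the difference in change from the gene's main probe set was 0.46. A gene level below 5.25 is called dim, since it lies among the weaker probe sets, and a change that starts or ends there is less certain.

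The mProx label was checked against proximal tubule markers. At rest the line had high levels of aquaporin-1 (Aqp1), the water channel of the proximal tubule, at 12.84, of the kidney cadherin Cdh16 at 12.23, of the brush border aminopeptidase Enpep at 11.22, of the kidney transcription factor Pax8 at 10.90 and of the neutral endopeptidase Mme at 10.09. Of 21 markers with a value, 4 were at least 4-fold above both mammary lines at rest, and the summed signal of the list was 18631 in mProx, against 3455 in MCT, 946 in NMuMG and 1098 in EpH4. Other defining markers were at or near the filter level, among them the phosphate transporter Slc34a1 at 5.26, the endocytic receptor Cubn at 5.52, the organic anion transporter Slc22a6 at 4.90 and the transcription factor Hnf4a at 5.29. Of the summed signal in resting mProx, Aqp1 made up 7014 and Cdh16 4906. At rest 11 of the 21 markers were at or above the filter level in mProx, 12 in MCT, 11 in NMuMG and 8 in EpH4. The median levels were 5.26, 5.47, 5.25 and 5.10 in the same order. The label is thus borne out by a few markers of high level, while the count and the median did not set mProx apart from MCT or NMuMG. The probe sets of Lrp2, the endocytic receptor megalin, did not agree. The one that stands for the gene was at 5.96 and 6.2 in resting and stimulated cells, a change of 0.23, while the other 2 were at 8.91 and 6.50 and at 8.78 and 6.65, changes of -2.41 and -2.13. Lrp2 is thus counted as below 2-fold although 2 of its 3 probe sets were more than 4-fold lower. After stimulation Enpep was at 7.06, a change of -4.16, Cdh16 at 10.04, a change of -2.19, Mme at 8.22, a change of -1.87, and Aqp1 at 11.23, a change of -1.60. The summed signal of the marker list after stimulation was 5886. The other 2 measures did not fall, with 13 of the 21 markers at or above the filter level and a median level of 5.51. Of the 11 markers that were compared, these 4 were 2-fold or more lower, 0 were higher and 7 were between.

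Markers of other cell types were also measured. Of the fibroblast list, decorin (Dcn) was at 10.56 and lumican (Lum) at 7.39 in resting mProx, and the summed signal of its 10 genes went from 2305 at rest to 675.1 after stimulation. In the other resting lines that sum ran from 190.8 in MCT to 4709 in EpH4. The leukocyte list gave 2411 at rest and 532.9 after stimulation, of which Csf1r, the receptor for a macrophage growth factor, named after its values were seen, made up 2142 and 206.6. Its level was 10.91 and then 7.63. Of the 8 leukocyte markers with a value, 5 were at or above the filter level in resting mProx. The count was 6 in MCT, 6 in NMuMG and 5 in EpH4 at rest. Ptprc and Itgam were among those dim in resting mProx, at 3.93 and 4.15. No marker in either list had a signal of 0 on an mProx array. Neither list was tested as a source of the values below. Bulk arrays cannot tell fewer cells of a type from less RNA per cell.

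Stimulated mProx cells had 284 genes 2-fold or more higher (2.28% of those compared) and 296 lower (2.38%), together 580 genes (4.65%). The largest increases were in Csn3, which encodes kappa-casein, at 3.66, the cathepsin inhibitor Ctla2a at 3.64, cardiac troponin T (Tnnt2) at 3.57, the secreted protein Ccbe1 at 3.34 and the cathepsin Ctsw at 3.25. The largest decreases were in Apela at -4.41, Enpep at -4.16, the sulfotransferase Sult1c2 at -4.13, Npr3 at -3.92 and ccdc198 at -3.91. The 5 genes of largest increase were also higher in the other 3 lines, by 0.37 to 5.54. All of the counts depend on a threshold, and 73 higher and 65 lower genes lay between 1 and 1.1, while 104 and 69 lay between 0.9 and 1. On the deposited scale without normalization between arrays, the median gene had a change of -0.11 and the split was 204 higher and 402 lower. Of the called genes 33.7% were then higher, against 49.0% after normalization.

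Further probe sets of the called genes mostly moved the same way. Of 176 further probe sets for the higher genes 88.6% were also higher and 48.9% were 2-fold or more higher, and of 247 for the lower genes 94.7% were lower and 49.0% were 2-fold or more lower. Over all genes compared, 64.3% of further probe sets shared the direction of the main one and 4.08% were 2-fold the same way.

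A gene was called mProx-only when it was 2-fold or more in mProx and had a same-direction change under 0.5 in each of the other 3 lines. This held for 116 of the 284 higher genes (0.931% of all compared) and 105 of the 296 lower genes (0.842%). For 92 and 64 of them, respectively, the gene was above the filter level on at least 1 array of each other line. The remaining 24 and 41 were dim on both arrays of at least 1 other line. For the 41 a decrease in that line could have been missed or understated. Sharing was most frequent with MCT, in which 55 of the higher and 69 of the lower genes were 2-fold or more the same way. The counts were 38 and 53 in NMuMG, and 21 and 16 in EpH4. Over all genes compared, 2.58% were 2-fold or more higher and 2.98% lower in MCT, 3.02% and 1.93% in NMuMG, and 1.48% and 1.12% in EpH4. All 4 lines shared 6 higher and 2 lower genes. The sharing counts describe which genes met a threshold and are not a test of a difference between lines.

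Of 80 further probe sets of the mProx-only higher genes 85.0% were also higher, and of 88 of the lower genes 94.3% were also lower. At 2-fold the shares were 41.3% and 38.6%. For the higher genes 37 of 116 were dim on the resting array, and for the lower genes 32 of 105 were dim on the stimulated array.

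**Figure D1:**
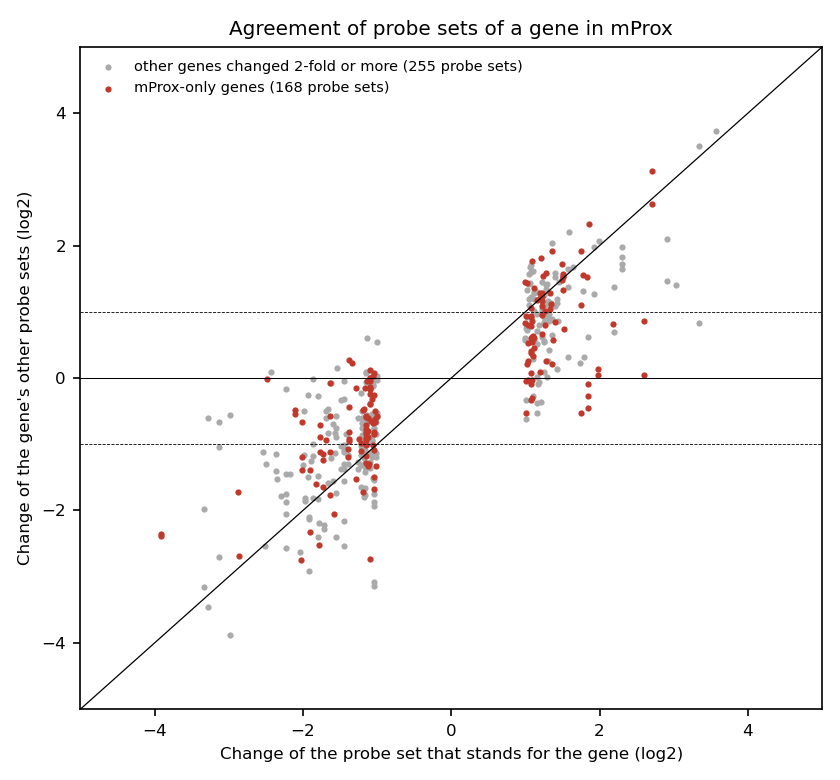
Each point is 1 further probe set of a gene with a change of 2-fold or more in mProx. The x axis is the log2 change of the probe set that stands for the gene, and the y axis is that of the further probe set. Red points belong to mProx-only genes, grey points to the others, the diagonal marks equal change and dashed lines mark 2-fold. Most points share the direction of the main probe set, and most lie nearer to 0 than the diagonal.

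**Figure D2:**
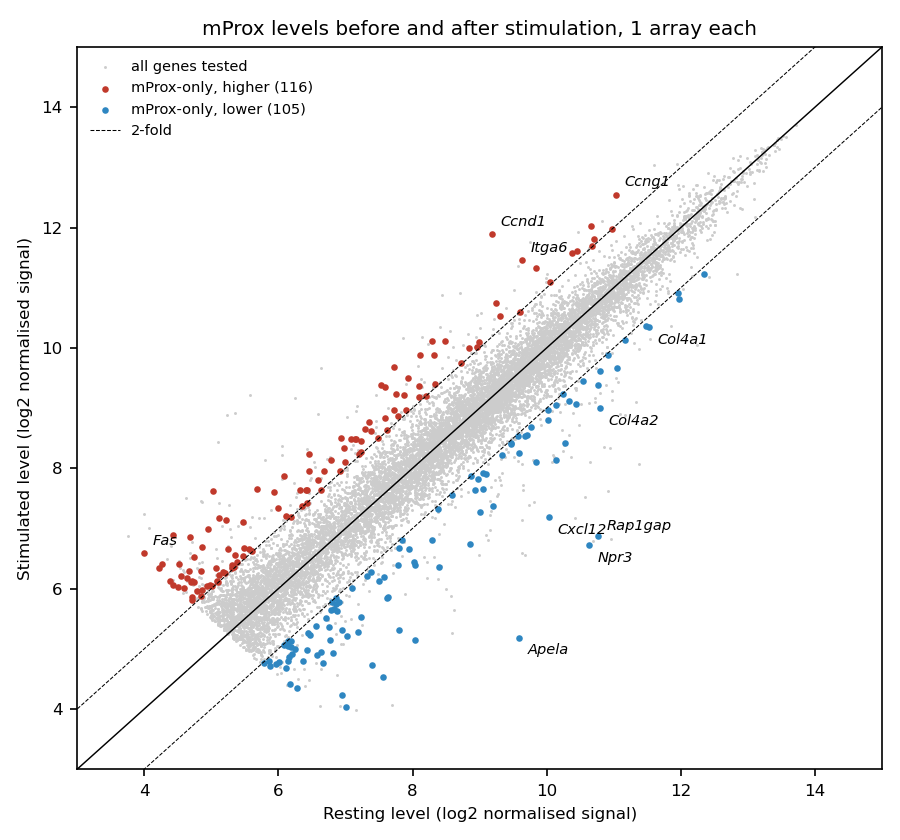
Each point is a gene, with its log2 level in resting mProx cells on the x axis and in stimulated mProx cells on the y axis, 1 array each. Grey points are the 12463 genes compared, red points the 116 mProx-only genes that were higher and blue points the 105 that were lower, and the dashed lines mark 2-fold. The coloured genes span most of the range of levels, and the slanted lower edge of the cloud is the filter on the mean of the 2 arrays.

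The largest mProx-only increase was that of cyclin D1 (Ccnd1), which binds cyclin-dependent kinases and drives cells out of G1 phase. Ccnd1 was at 9.18 in resting and 11.89 in stimulated mProx, while in MCT it was at 11.27 and 11.57, in NMuMG at 11.74 and 11.92, and in EpH4 at 11.90 and 11.80. Resting mProx thus stood below the other 7 arrays, and stimulated mProx lay within their range. The change was 2.71, a fold of 6.53, and 3 of 3 probe sets gave 2.63 to 3.12. The mean change of the other 3 lines was 0.13. The related cyclin D2 (Ccnd2), named after its values were seen, was at 9.30 and 10.53, a change of 1.22, with 5 of 7 probe sets 2-fold or more higher. Its changes in the other lines were between -0.05 and 0.22.

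A limma test set the mProx change of each of 12570 genes against the mean change of the other 3 lines. Because mProx is 1 pair of arrays with no spread of its own, the test takes its error from the other lines and assumes that mProx varies like them. It called 1 gene, Ccnd1 (Benjamini-Hochberg adjusted p = 0.0365), and 925 had an unadjusted p below 0.05. The Ccnd1 call was lost with trimmed mean scaling, without the filter, without the intensity trend and without NMuMG (adjusted p from 0.07005 to 0.5143). The count called was 2 without EpH4, 70 without MCT and 0 without NMuMG. The test is therefore not taken as support for any gene, and the differences between mProx and the other lines are given as sizes.

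**Figure D3:**
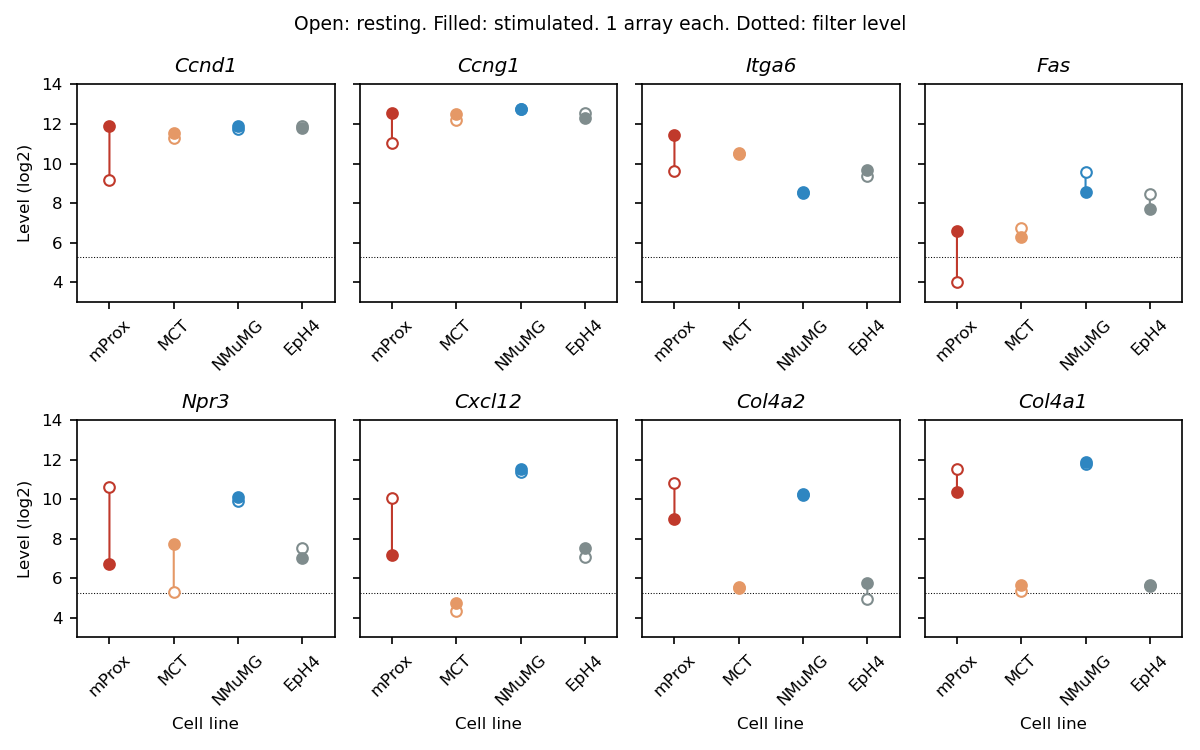
Log2 levels of 8 genes on all 8 arrays, with the cell lines on the x axis. Open circles are resting cells, filled circles stimulated cells, 1 array each, and the dotted line is the filter level of 5.25. In mProx the upper 4 genes were higher after stimulation and the lower 4 were lower, while in the other lines most pairs of circles lie close together, Npr3 in MCT and Fas in NMuMG being the farthest apart.

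Of the list of CDK inhibitors and p53 targets, genes that stop the cell cycle or follow the tumour suppressor p53, 11 of 28 members were 2-fold or more higher in mProx and 0 lower. The median change was 0.84, against 0.00 over all genes compared. The same 28 genes had a median of 0.38 in MCT, -0.15 in NMuMG and -0.03 in EpH4. Over the other normalizations, offsets and filters 10 or 11 members were higher, and the median ran from 0.66 to 0.85. Of the 11, 4 were mProx-only, namely Fas, Eda2r, Ccng1 and Plk2. That share was no larger than the one over all higher genes, 116 of 284 (40.8%).

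Cyclin G1 (Ccng1), a classical p53 target, was at 11.04 and 12.55 in mProx, a change of 1.51, with 3 of 3 probe sets at 1.51 to 1.58. In the other lines it was between 12.23 and 12.76 on all 6 arrays, above resting mProx. Eda2r, a receptor of the TNF receptor family, was at 5.93 and 7.61, a change of 1.67 on 1 probe set. The death receptor Fas was at 4.0, dim, and 6.59 in mProx, a change of 2.59, and at 6.30 to 9.55 on the other 6 arrays, where its changes were -0.44 to -0.98. The kinase Plk2, named after its values were seen, was at 9.85 and 11.33, a change of 1.49. The 4 genes share a resting mProx level below that of all 3 other resting lines, though for Eda2r resting NMuMG was nearly equal, at 5.98. Over the list, resting mProx was the lowest of the 4 resting lines for 16 of 28 members, and for 9 of the 11 that were 2-fold higher. Over all genes compared it was the lowest for 22.0%. The resting mProx array enters both the rank and the change, so the count among the 11 is not a test.

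The CDK inhibitor p21 (Cdkn1a) was at 9.76 and 11.75 in mProx, a change of 2.00 with 2 of 2 probe sets 2-fold or more, and had changes of 0.86 in MCT, -0.44 in NMuMG and -0.01 in EpH4. The CDK inhibitor p15 (Cdkn2b), also a TGF-β target, was at 9.02 and 10.57, a change of 1.55, and was shared with MCT at 1.38. The remaining higher members were Gadd45a at 1.50, Zmat3 at 1.41, Pmaip1 at 1.28, Phlda3 at 1.22 and Trp53inp1 at 1.18, named because they complete the count. Of these, Gadd45a and Pmaip1 were also 2-fold or more higher in MCT, at 1.32 and 1.44. The list of DNA replication and mitosis genes, 40 members, had 0 genes 2-fold higher and 0 lower, and its median change was -0.14. Its largest change in mProx was that of the proliferation marker Mki67, from 11.13 to 10.44.

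**Figure D4:**
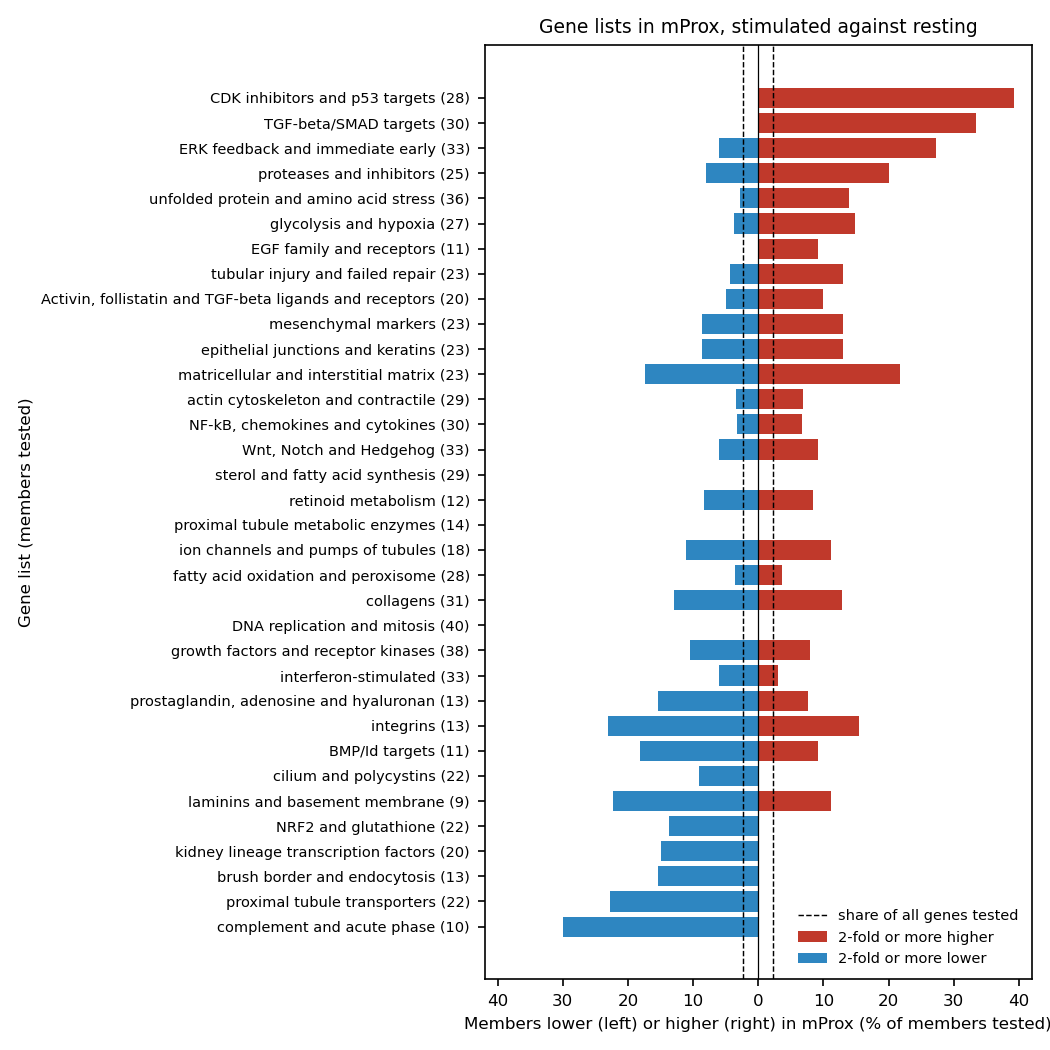
For each of 34 gene lists, the share of its compared members (number in brackets) that were 2-fold or more higher in stimulated mProx, drawn to the right in red, and lower, drawn to the left in blue. The dashed lines mark the same shares over all genes compared, 2.28% and 2.38%. The list of CDK inhibitors and p53 targets has the longest red bar, 39.3%, and that of complement and acute phase genes the longest blue bar, 3 of 10.

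Targets of the ERK route and of TGF-β were also 2-fold higher in mProx, and 1 of them was mProx-only. Among ERK feedback and immediate early genes, 9 of 33 were 2-fold or more higher and 2 lower, with a median of 0.26 in mProx and 0.77 in MCT. The ETS factor Etv4 was at 6.63 and 9.66, a change of 3.03, and Etv5 at 6.25 and 9.17, a change of 2.91. The ERK phosphatase Dusp5 was at 4.86, dim, and 7.43, a change of 2.57 on 1 probe set. The Etv4 and Etv5 changes in the other lines were 0.90 to 1.52. The immediate early factor Egr1, named with Fosl2 because they were the 2 lower members, was at 11.86 and 10.37, a change of -1.49, and Fosl2 had a change of -1.14. By the median over probe sets 1 member was lower. Resting mProx was the lowest resting line for 13 of the 33 members and for 7 of the 9 that were higher, against 22.0% of all genes compared. The count among the 9 is again no test, since the same array is the baseline of their change.

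Among TGF-β/SMAD targets, 10 of 30 were 2-fold or more higher and 0 lower, and 0 of the 10 were mProx-only. The list median was 0.45 in mProx, 0.84 in MCT, 0.61 in NMuMG and 0.40 in EpH4. Hmga2, a chromatin factor induced by SMADs, was at 8.41 and 10.34, a change of 1.93. The chain Col1a1 of type I collagen was at 4.68, dim, and 6.50, a change of 1.82. A few targets that were higher in MCT were not higher in mProx. The matrix protein tenascin C (Tnc) had a change of -0.88 in mProx and changes of 3.59, 1.59 and 1.01 in MCT, NMuMG and EpH4. The Notch ligand Jag1 had a change of -0.14 in mProx and changes of 3.57, 0.81 and 1.08 in the same order. For the inhibitory SMAD Smad7 the values were 0.01 in mProx, which turned to -0.14 on the deposited scale, and 0.60, 0.79 and 0.95. These 3 genes were named after their values were seen, and each line has 1 array a side. The mProx change minus the mean of the other lines was -2.94 for Tnc, -1.96 for Jag1 and -0.77 for Smad7.

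Genes of the BMP branch, which uses other SMADs and raises the Id genes, included 2 of 11 that were 2-fold or more lower. Id3, an inhibitor of differentiation factors, was at 10.42 and 7.17 in mProx, a change of -3.24, and had changes of -1.19 in MCT, 0.01 in NMuMG and 0.05 in EpH4. Id2 was at 10.80 and 9.25, a change of -1.55, and was lower in MCT and NMuMG too. The Notch and BMP target Hey1 was at 4.64, dim, and 6.17, a change of 1.53 and mProx-only. The ligand Bmp6, named after its values were seen, was at 10.27 and 8.42, a change of -1.86 and mProx-only. Follistatin (Fst), a secreted protein that binds activins, was at 6.09 and 7.87, a change of 1.78 with 2 of 2 probe sets 2-fold or more, and mProx-only. The activin subunit Inhba was at 6.43 and 8.32, a change of 1.89, and was shared with MCT at 1.37.

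Of 38 growth factors and receptor kinases, 3 were 2-fold or more higher and 4 lower, with 1 mProx-only each way. Other ligands and receptors are given here singly. Apela, a peptide ligand of the apelin receptor, was at 9.59 in resting and 5.18 in stimulated mProx, a change of -4.41. It was between 3.57 and 3.84 on the other 6 arrays, dim throughout, so that a decrease there could not have been seen. Apln, the other ligand of that receptor, named after its values were seen, was at 9.46 and 8.40, a change of -1.07, and between 7.40 and 8.14 in the other lines. The chemokine Cxcl12 was at 10.04 and 7.18, a change of -2.86 with 2 of 2 probe sets at -2.86 and -2.69. In NMuMG it was at 11.40 and 11.55, in EpH4 at 7.07 and 7.54, and in MCT at 4.35 and 4.75, dim. Ackr3, a scavenging receptor of that chemokine named after its values were seen, was at 7.49 and 6.12 in mProx, a change of -1.37, and had a change of 2.78 in MCT. The GDNF co-receptor Gfra1 was at 9.01 and 7.27, a change of -1.74 with 3 of 3 probe sets 2-fold or more lower, while its ligand Gdnf, named after its values were seen, was at 6.33 and 7.64, a change of 1.31.

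Npr3, the clearance receptor of natriuretic peptides, was at 10.64 and 6.72 in mProx, a change of -3.92, and 3 of 3 probe sets gave -3.92 to -2.35. In MCT Npr3 was at 5.30 and 7.72, a change of 2.42 in the other direction, and in NMuMG and EpH4 its changes were 0.18 and -0.49. Npr3 in mProx thus lay above MCT at rest and below it after stimulation. Rap1gap, which switches off the small GTPase RAP1, was at 10.76 and 6.87, a change of -3.89 on 1 probe set, and at 6.80 to 8.22 on the other 6 arrays. The prostaglandin receptor Ptger4 was at 9.84 and 8.11, a change of -1.73. The frizzled receptor Fzd4, which takes up Wnt and norrin signals, was at 7.78 and 6.39, a change of -1.39 with 2 of 2 probe sets.

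Other large mProx-only decreases were of Plppr3 at -3.02, D630039A03Rik at -2.98, Ms4a2, a chain of the IgE receptor, at -2.88, and the glucose-6-phosphatase relative G6pc2 at -2.71. Each of these 4 ended dim in mProx, and all but D630039A03Rik were dim on both arrays of each other line. The small proteoglycan Lum had a change of -2.66 and its relative fibromodulin (Fmod) of -1.91, with 3 of 3 Fmod probe sets 2-fold or more lower. Dcn, of the same family, had a change of -3.04, and of -0.89 in NMuMG, where it was dim. Phyhipl at -2.03, the zinc finger gene Zfp618 at -2.01 and the potassium channel Kcnma1 at -1.79 had further probe sets of 2-fold or more the same way, 2 of 2, 3 of 4 and 2 of 2 in all. In Hip1r and Plxdc1 only 1 of 3 and 1 of 2 probe sets reached 2-fold. Of the 15 largest decreases, 5 had at least 2 probe sets and all of them 2-fold or more lower.

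**Figure D5:**
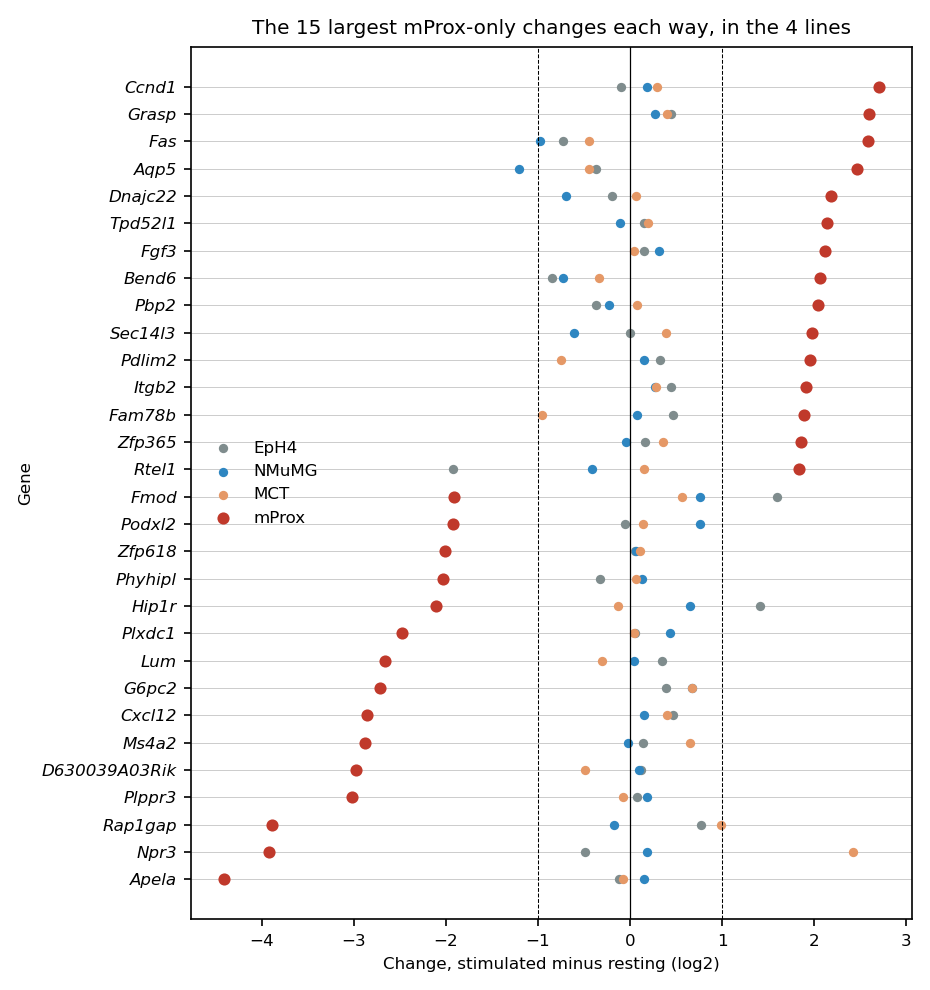
The log2 change on stimulation of the 15 mProx-only genes with the largest increase and the 15 with the largest decrease, with the genes on the y axis and 1 point for each cell line. Red points are mProx, orange MCT, blue NMuMG and grey EpH4, and dashed lines mark 2-fold. By the rule that chose them, no other line has a same-direction change of 0.5 or more, and the points of Npr3 in MCT and Rtel1 in EpH4 lie farthest on the opposite side.

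Genes of the basement membrane, the sheet of matrix under epithelia, were among the mProx-only decreases. Its main network is made of type IV collagen, in which the chains from Col4a1 and Col4a2 form 1 triple helix. Col4a1, named after its values were seen, was at 11.53 and 10.34 in mProx, a change of -1.19 with 2 of 2 probe sets at -1.19 and -1.73. In NMuMG it was at 11.79 and 11.86, and in MCT and EpH4 between 5.34 and 5.63. Col4a2 was at 10.80 and 9.0, a change of -1.80 on 1 probe set, at 10.19 and 10.26 in NMuMG, and at 4.96 to 5.74 in MCT and EpH4. Both genes were thus well above the filter level in 2 of the 4 lines, and only in mProx were they 2-fold lower after stimulation. The mProx change minus the mean of the other lines was -1.31 for Col4a1 and -2.11 for Col4a2, from 1 array a side. Col4a4 was at 8.03 and 6.39, a change of -1.64 with 2 of 3 probe sets, and had a change of 1.75 in MCT from a dim level.

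Col4a1 and Col4a2 lie head to head on opposite strands, so the 2 windows are shown as the pair that the joint decrease concerns. Col4a1 starts at 11312826 on the minus strand and Col4a2 at 11312805 on the plus strand. The annotated transcripts thus overlap at their starts, and the bases before each start run into the other gene. The windows come from RefSeq on GRCm38.p6, run 5′ to 3′ from 250 bases before to 50 bases after the annotated start, and overlap by 78 bases, with starts 21 bases apart. Capitals would mark letters of AP-1 (TGANTCA), SMAD (CAGACA) or an E-box (CAGGTG), searched on both strands, and neither window holds any.
Col4a1, chr8:11312777-11313076, minus strand: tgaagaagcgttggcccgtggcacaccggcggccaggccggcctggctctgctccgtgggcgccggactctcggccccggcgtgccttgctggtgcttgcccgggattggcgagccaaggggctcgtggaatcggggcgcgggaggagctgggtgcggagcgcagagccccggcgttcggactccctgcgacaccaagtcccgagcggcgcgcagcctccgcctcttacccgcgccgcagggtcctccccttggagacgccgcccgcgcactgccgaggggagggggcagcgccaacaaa
Col4a2, chr8:11312555-11312854, plus strand: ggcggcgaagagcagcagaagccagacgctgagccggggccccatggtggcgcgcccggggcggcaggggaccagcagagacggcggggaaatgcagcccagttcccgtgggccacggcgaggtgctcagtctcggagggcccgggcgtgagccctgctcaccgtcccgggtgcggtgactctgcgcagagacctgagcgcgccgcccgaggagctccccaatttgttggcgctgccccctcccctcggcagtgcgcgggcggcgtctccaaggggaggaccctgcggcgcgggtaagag

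The absence of these letters says only that they are not in these windows. Over the promoters of the mProx-only genes that were higher, 13 of 113 windows (11.5%) held the AP-1 letters, against 5.42% of the 12874 windows of all genes compared and 7.21% of those of the mProx-only lower genes. For genes 2-fold or more without being mProx-only the AP-1 share was 8.44% of the higher and 9.55% of the lower, and over all promoters in the table, genes not compared included, it was 7.81%. The SMAD letters were in 21.2% of the windows of mProx-only higher genes, 22.5% of mProx-only lower genes, 16.5% of all genes compared and 21.0% of the whole table. The E-box letters were in 20.4%, 20.7%, 18.4% and 20.2% in the same order. Several windows can belong to 1 gene, and 92 of the 116 mProx-only higher genes had a window. The Fas window is shown as the example with AP-1 letters among the genes of largest increase, with the match in capitals from position -211 relative to the start.
Fas, chr19:34290409-34290708, plus strand: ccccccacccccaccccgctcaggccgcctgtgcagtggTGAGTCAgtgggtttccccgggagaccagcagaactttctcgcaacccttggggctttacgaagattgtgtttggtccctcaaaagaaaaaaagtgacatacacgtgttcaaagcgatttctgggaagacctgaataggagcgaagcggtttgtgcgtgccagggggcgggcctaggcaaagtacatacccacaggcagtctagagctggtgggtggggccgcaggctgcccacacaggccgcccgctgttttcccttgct

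Of 9 laminins and other basement membrane genes compared, 2 were 2-fold or more lower, 1 was higher and 6 were between. Nidogen-2 (Nid2), which links laminin and type IV collagen, was at 9.12 and 6.81 in mProx, a change of -2.31, and had changes of -0.87 in MCT and 1.48 in EpH4, both from dim levels. The laminin chain Lama1 was at 6.66 and 4.76, dim, a change of -1.91, and was dim on both arrays of the other lines. The laminin chain Lamb3 was at 4.71, dim, and 6.77, a change of 2.06, and was higher in all 3 other lines by 1.06 to 1.84. Of the 31 collagens compared, 4 were higher and 4 lower, and all of the 4 lower ones, Col4a1, Col4a2, Col4a4 and Col11a1, were mProx-only. Over all lower genes this held for 105 of 296. Col11a1 was at 6.77 and 5.15, dim, in mProx, and was dim on both arrays of MCT and EpH4. Col4a4 was dim on both EpH4 arrays, so a shared decrease of these 2 genes could have been missed there. The higher collagens were Col1a1, Col5a3 at 1.47, Col4a6 at 1.42 and Col27a1 at 1.21, and 0 of them were mProx-only. The higher count was 1 with both mProx arrays above the filter and 2 at the higher offset, the 50th percentile. The list median was 0.06. The matrix glycoprotein fibronectin (Fn1) was at 11.60 and 13.03, a change of 1.43, shared with MCT at 2.14.

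The receptors that hold cells to this matrix included Itga6, the integrin chain that binds laminin, at 9.63 and 11.46 in mProx, a change of 1.83 with 2 of 2 probe sets 2-fold or more. In MCT it was at 10.53 and 10.50, in NMuMG at 8.52 and 8.55, and in EpH4 at 9.35 and 9.68. Stimulated mProx was thus above the other 7 arrays for Itga6. Itgb2, the leukocyte integrin chain, was at 5.22, dim, and 7.13, a change of 1.91 on 1 probe set. Of 13 integrins, 2 were higher, both mProx-only, and 3 lower. The lower ones were the collagen-binding chain Itga1 at -1.80, which was also lower in MCT and NMuMG at -1.45 in each, Itga9 at -1.24, which was mProx-only, and Itgb8 at -1.24, named to complete the count. The cadherin Cdh6 of the developing proximal tubule, named after its values were seen, was at 9.20 and 7.37 in mProx, a change of -1.83, and had a change of 2.30 in MCT.

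Further mProx-only increases with agreement between all their probe sets were of the fatty acid carrier Fabp5, at 10.66 and 12.03 with changes of 1.37 and 1.92, and of Cpne8, a membrane-binding protein, at 8.12 and 9.87 with 3 of 3 probe sets. The adenylate cyclase Adcy7 was at 6.46 and 7.95, a change of 1.49 with 3 of 3 probe sets, and the zinc finger gene Zfp365 at 7.52 and 9.38, a change of 1.86 with 2 of 2. All 4 were above the filter level on all 8 arrays. The water channel Aqp5 was at 4.42, dim, and 6.89 in mProx, and at 9.07 and 10.30 in resting NMuMG and EpH4. The growth factor Fgf3 was at 4.22, dim, and 6.34, a change of 2.12. Pdlim2, a cytoskeletal adaptor, was at 7.72 and 9.68, a change of 1.96.

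Other genes among the 15 largest increases had weaker support. In Grasp, a change of 2.60 on the main probe set stood beside 0.05 on another, and in Sec14l3, 1.98 stood beside 0.04. Of 4 probe sets of the helicase gene Rtel1, 1 was higher, at 1.84, and the lowest gave -0.45. Dnajc22 had 2.19 and 0.81. The genes Tpd52l1 at 2.14, Bend6 at 2.06, Pbp2 at 2.04 and Fam78b at 1.89 each had 1 probe set and were dim at rest. Of the 15 genes, 11 were dim on the resting array.

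Metabolic lists added a smaller number of mProx-only genes. The glycolysis and hypoxia list had a median of 0.50 over 27 members, against -0.02 in MCT, 0.05 in NMuMG and -0.13 in EpH4, with 4 members 2-fold or more higher and 1 lower. Hexokinase 2 (Hk2), the first enzyme of glycolysis, was at 7.46 and 9.21, a change of 1.76, and the glucose transporter Slc2a1 at 8.95 and 10.18, a change of 1.23 that was shared with MCT at 1.11. The hypoxia target Ankrd37, at 6.41 and 7.65, was mProx-only. Pfkfb3 was lower, at 6.86 and 5.25, just under the filter level and so dim. Its change of -1.62 stood beside -0.08 on its further probe set, and by the median over probe sets 0 members were lower. In the list of unfolded protein and amino acid stress 5 of 36 were higher and 1 lower, but only 1 was higher on the deposited scale, and 1 with quantile normalization over the 2 arrays of each line. Asparagine synthetase (Asns) was at 10.68 and 11.70, a change of 1.02 with 2 of 2 probe sets, and was mProx-only. The cysteine-forming enzyme Cth was at 6.05 and 8.37, a change of 2.33. The serine enzyme Psat1 at 1.00 and the mitochondrial folate enzymes Mthfd1l at 1.57 and Aldh1l2 at 1.36, all mProx-only, were named after their values were seen. Psat1 lay at the threshold, with a further probe set at 0.94, and reached 2-fold in 6 of 10 other settings. The sterol and fatty acid synthesis list had 0 of 29 members at 2-fold in either direction.

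Kidney genes that were lower in mProx were mostly not mProx-only. Of 22 transporters of the proximal tubule, 5 were 2-fold or more lower and 0 higher (7 and 4 of 43 without the filter). Their median change was -0.25, and 0.09 without the filter. Of 13 brush border and endocytosis genes, 2 were lower, Enpep and Mme. The sodium pump chain Atp1b1 was at 11.33 and 9.10, a change of -2.23 with 4 of 5 probe sets 2-fold or more lower, and was also lower in MCT at -1.46 and NMuMG at -1.39. Aqp1 had no counterpart in the other lines, which were at 5.07 to 5.87 at rest, though its change of -0.70 in NMuMG kept it out of the mProx-only set. The neutral amino acid transporter Slc6a18 was at 6.37 and 4.80, dim, a change of -1.57, and was the 1 mProx-only member of the list. The monocarboxylate transporter Slc16a12 had a change of -1.40 and Slc17a1, named to complete the count, of -1.12. The list of kidney lineage transcription factors had a median of -0.68, against -0.21 in MCT, -0.01 in NMuMG and 0.02 in EpH4, and 3 of 20 members were 2-fold or more lower. Foxd1, a factor of the renal stroma, was at 11.03 and 9.51, a change of -1.52. The bile acid receptor Nr1h4 had a change of -1.42 and Eya1, of the nephron progenitors, of -1.0. The further probe set of Eya1 gave -0.59, and Eya1 reached 2-fold in 5 of 10 other settings. Pax8 was at 10.90 and 10.02, a change of -0.88. The potassium channel Kcnj16 was at 9.74 and 7.39, a change of -2.35 with 2 of 2 probe sets, and Prom1, a membrane protein of regenerating tubule cells, at 10.97 and 9.13, a change of -1.84.

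The 2 kidney lines shared 15 higher and 20 lower genes at 2-fold or more with changes under 0.5 in the same direction in both mammary lines. Among the higher ones were the transcription factor Myc, at 8.56 and 10.27 in mProx with changes of 1.72 and 1.57 in mProx and MCT, Cdkn2b, Fn1, and Tmem158 at 2.31 and 1.14. The neighbour of Myc, the noncoding RNA gene Pvt1, had changes of 1.33 and 1.16, with 1 of 5 probe sets at 2-fold. Among the lower ones were Gas1, a membrane protein of growth arrest, at 11.17 and 8.88 in mProx with changes of -2.29 and -1.58, the G protein chain Gnai1 at -1.97 and -1.39, the kinase Sgk3 at -2.37 and -1.30, Efhd1 at -2.21 and -1.40 and Zap70 at -1.98 and -2.09. Gas1, Gnai1 and Sgk3 had all of their 2 or 3 probe sets at 2-fold or more lower.

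The resting levels set mProx apart for many of these genes. Resting mProx was the lowest of the 4 resting lines for 56.0% of the mProx-only higher genes, against 22.0% of all genes compared, and the highest for 72.4% of the mProx-only lower genes, against 24.8%. The median mProx-only higher gene was 1.07 below the mean of the other resting lines before stimulation and 0.29 above it afterwards. The median lower gene was 1.32 above and then 0.17 below. The resting mProx array enters both the level and the change, so these shares describe the chosen genes and are not a test.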

How the data were processed

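Total RNA of each line and state was hybridised to a single-colour Affymetrix Mouse Genome array. The deposited values are linear array intensities, 1 signal per probe set, made by the authors with MAS5 per the submitters' processing notes; neither its version nor its scaling is given in the sources used here. Without the 64 control probe sets, the intensities were raised by 10.6 (the 25th percentile of those above 0), put on the log2 scale and quantile-normalized over the 8 arrays, in Python 3.11.15. Median signals were 41.5 to 59.7 over the arrays, 57.4 and 51.5 in mProx. The offset understates changes of dim genes, and quantile normalization removes an overall shift between arrays. Of 45037 probe sets, 34945 had 1 gene symbol, 932 several and 9160 none, and 34741 matched the GRCm38.p6 gene table. A gene stands by its brightest probe set, preferring those not marked as cross-hybridising, and was compared from a mean level of 5.25 in mProx.

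The difference of the mProx change from those of the other 3 lines was tested with limma 3.58.1 (lmFit, eBayes with trend) in R 4.3.3 over 12570 genes, with Benjamini-Hochberg adjustment at 0.05, and the code was tested on simulated data. The pairing is by line name, and its p-values cover no more than the differences among 4 lines. No test was made of the mProx response itself.

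Genes were named by rule: the 15 largest mProx-only increases and decreases; up to 8 each way with 2 or more probe sets all at 2-fold, shared with MCT only, or opposite in another line; up to 4 per list; the 5 largest each way; and the proximal tubule markers. Other names are marked in the text. Members and the 34 pathway and 8 marker lists were chosen with earlier results of these data known. Alternatives were other scalings, offsets, filters and gene values, and leaving out lines.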

Additional observations from a re-analysis of the deposited data

Results flagged for a closer look

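Of the 580 genes 2-fold or more in mProx, 45 were 2-fold or more in the opposite direction in at least 1 other line, 28 of them lower and 17 higher in mProx. The 8 with the largest mProx change are given here, and for none of them was the opposition of the 2 lines tested, since each line has 1 array a side. Npr3 had a change of -3.92 in mProx and 2.42 in MCT, the other kidney line. The water channel gene Aqp5 had 2.46 in mProx and -1.20 in NMuMG, and Sytl1, which encodes a vesicle-trafficking protein, 2.31 and -1.91, with Sytl1 dim in resting mProx and in stimulated NMuMG. The small GTPase gene Rasl11a had -2.19 in mProx and 1.03 in NMuMG. In EpH4 the opposite changes were those of Nid2, -2.31 in mProx and 1.48, of Hip1r, -2.11 and 1.41, of Spata3, -1.97 and 2.39, and of Fmod, -1.91 and 1.59. Nid2, Spata3 and Fmod were dim in resting EpH4. Only Npr3 and Fmod had every one of 3 probe sets at 2-fold or more in mProx, and Hip1r had 1 of 3.

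The mProx change of Ccnd1, 2.71, was 2.58 above the mean of the other 3 lines, 0.13. A limma test called this difference (Benjamini-Hochberg adjusted p = 0.0365), but mProx is 1 pair of arrays, so the error comes from the other lines alone and the call is no replicate check of mProx. Over the alternatives the difference ran from 2.37 to 2.66 and the adjusted p from 0.0007581 to 0.5143.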

How the results depend on the processing

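The 284 higher and 296 lower genes, and the 116 and 105 mProx-only ones, depended on the offset, the filter and, for mProx-only, the limit for sharing. With the offset at the 50th percentile 152 genes were higher and 187 lower, 64 of the higher ones mProx-only, and without a filter 640 and 592, of which 274 and 263 mProx-only. On the deposited scale 76 higher genes were mProx-only. With a limit of 0.25 for sharing the mProx-only counts were 59 and 63, with a limit of 1 they were 202 and 191, and 64 lower genes remained when each other line had to be measured. Transporters 2-fold lower numbered 2 at the higher offset, 3 with the filter on 8 arrays and 2 with both mProx arrays above it. The count of lower kidney factors ran from 2, with trimmed mean scaling among others, to 5 without a filter. Under the 10 other settings the higher counts of the CDK inhibitor, TGF-β and ERK lists and the lower count of collagens stayed within 1.5 times. The limma difference called 26 genes on the deposited scale and 0 with trimmed mean scaling, without a filter or without the trend, where 839, 1256 and 807 had an unadjusted p below 0.05. Leaving out 1 line gave 0 to 70 calls, 0 without NMuMG (949 unadjusted) and 70 without MCT. Of 1300 values for 130 named genes over 10 settings, 72 moved by more than 0.46. Of genes 2-fold or more, 1 turned sign, Rtel1, at -0.18 as the median over probe sets. Below 2-fold Lrp2 went from 0.23 to -1.78 at the higher offset and -2.13 as that median, and Cubn and Smad7 turned sign near 0. Of the 221 mProx-only genes, 113 (the higher offset) to 221 were called again under the other settings. Quantile normalization within each line, and leaving out a line in judging sharing, were chosen after seeing the data. The arrays were paired by line, and the labels used give no replicate numbers.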
